A study of Nothobranchius furzeri with 15 samples.

Results

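A set of 84 genes stood far above its level everywhere else in 1 of 15 liver libraries, library 4 of the group given rotenone at 15 pM. The genes were chosen by their log2 CPM, where CPM is the gene's read count relative to the scaled total of its library. In each of them library 4 lay more than 2 log2 units, or 4-fold, above the highest of the other 14 libraries, and the mean over the 15 libraries was at most 1000 CPM. The distance from library 4 to the highest other library is called the gap here. Genes in which the other 4 libraries of 15 pM all lay above both other groups would have been left out, and 0 genes met that condition. The 84 genes were 0.531% of the 15834 genes with enough counts to test, out of 26739 gene identifiers. The number of genes that met the rule was 134 when DMSO library 1 was left out, and 82 of those were among the 84.

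The study measured RNA in livers of male turquoise killifish (Nothobranchius furzeri) of the GRZ strain at 9 weeks of age. This is a short-lived annual fish, and GRZ is an inbred laboratory strain. DMSO, the solvent, was given to the control group of 5 libraries, numbered 1 to 5. Rotenone was given at 15 pM to a group of 5 libraries, numbered 1 to 5, and at 150 pM to a group of 5 libraries, numbered 8 to 12. The labels name no genetic change in any group. The sources used here give neither the route nor the length of exposure. They also do not say whether each library came from its own fish, so the spread behind each p-value is that of these libraries and may be technical.

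Rotenone blocks complex I of the mitochondrial respiratory chain, which takes electrons from NADH and passes them to ubiquinone. The liver has a high demand for mitochondrial energy and also makes plasma proteins, bile and the enzymes that clear foreign compounds. RNA from a whole piece of organ mixes hepatocytes with blood, duct, vessel and immune cells and with any neighbouring tissue in the piece. In such bulk RNA, more cells of a type and more RNA per cell cannot be told apart. The files give identifiers without gene names, and 0 of the 26739 identifiers were found in the reference table used here. The functions of the 84 genes are therefore not described, the labelled tissue was not checked against liver markers, and 3 identifiers are printed.

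Library 4 held 24251062 counts, within the range of 22185038 to 35672589 over all 15 libraries. Its 10 most abundant genes took 30.3% of its counts, against 19.1% to 32.7% in the other 14. Counts of at least 10 were found for 15081 genes in library 4 and for 14407 to 16423 genes in the others. Its scaling factor was 1.11, and the others ran from 0.864 to 1.15. The median correlation of its log2 CPM with the other libraries was 0.855, whereas these medians were 0.915 to 0.953 for the other 14. It also stood low: 287 genes met the mirror of the rule, more than 2 log2 units below the lowest other library. The correlation of each library's deviation with gene length was -0.086 in library 4 and between -0.171 and 0.141 in the other 14.

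Within the set, library 4 was high by a wide range of factors. The gap had a median of 2.53 and a maximum of 5.87 log2 units. It was over 3 in 24 genes and over 4 in 13 genes, and 15 genes lay between 2 and 2.1. The gene nearest the limit on the inside had 47.4 CPM in library 4 and 11.8 CPM in the highest other library. The nearest gene outside had 368.6 CPM in library 4 and 92.2 CPM in the highest other library, a gap of 1.998, and 14 genes had gaps between 1.9 and 2. Another gene passed the gap but had a mean over 1000 CPM. These values chose the genes and are given as a description.

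**Figure D1:**
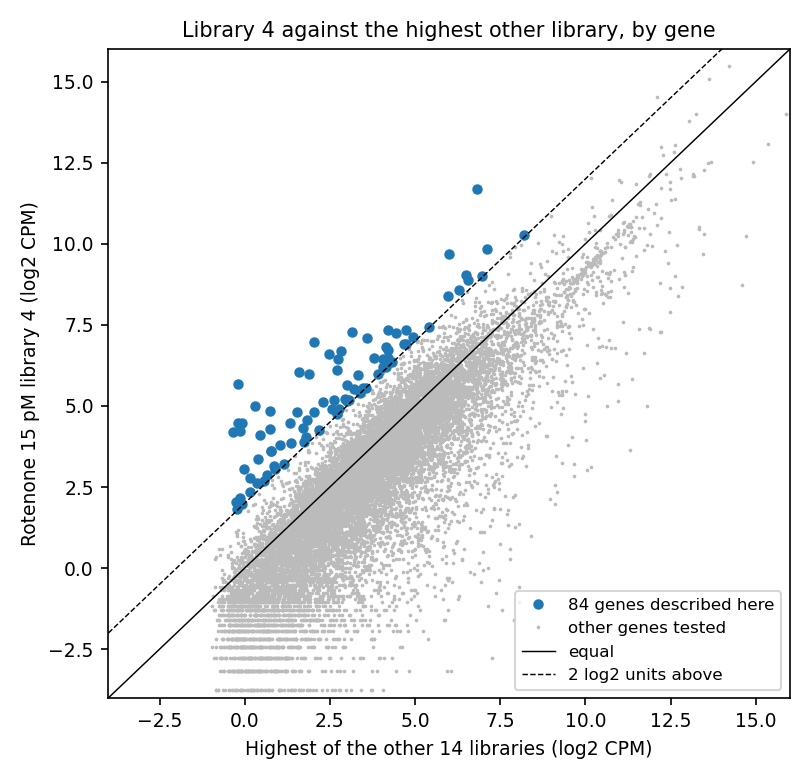
Each point is a gene: its log2 CPM in rotenone 15 pM library 4 (vertical) against its highest log2 CPM in the other 14 libraries (horizontal). The 84 genes in blue lie above the dashed line, 2 log2 units over equality, and the only grey point above that line is the gene whose mean was over 1000 CPM.

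The same rule was applied to each other library in turn, without the condition on the 15 pM group, as a description. It gave 31 genes for 150 pM library 8, 7 genes for DMSO library 1, 2 genes for 15 pM library 3 and 1 gene for DMSO library 5. It gave 0 genes for each of the other 10 libraries. Library 4 was also the highest of all 15 libraries in 3398 of the 15834 genes, or 21.5%, at any gap.

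In library 4 the 84 genes ranged from 3.48 to 3337 CPM, with a median of 39.4 CPM. Measured against the median of the other 14 libraries, library 4 was between 5.3 and 200.8 times higher, with a median of 20 times, and it was at least 10 times higher in 61 of the 84 genes. The genes fell into 3 classes by that median. In 36 genes the median of the other libraries was under 1 CPM, a range that held 16% of all genes tested. These genes reached 3.48 to 126.7 CPM in library 4, a median of 49.8 times their usual level, and 10 of the 13 gaps over 4 were among them. Another 33 genes had medians from 1 to 10 CPM elsewhere and stood at 9.18 to 384.8 CPM in library 4, a median of 13.5 times higher. In the remaining 15 genes the median elsewhere was 10 CPM or more, where 41.2% of all genes tested lay. They stood at 74.3 to 3337 CPM in library 4, a median of 9.14 times higher. The same median sets the classes and is the divisor in these ratios, so their fall across the classes is partly built in. In the lowest class that divisor rests on few counts.

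Levels of different genes were set side by side as CPM per kilobase of gene length. In library 4 the 84 genes had a median of 18.9 CPM per kilobase, whereas all genes tested had 2.73. By the median of the other 14 libraries the same genes had 0.619 CPM per kilobase, whereas all genes tested had 2.67. In library 4, 76 of the 84 genes lay above the median of all genes, and 36 were at or above its 90th percentile. In the other libraries 22 lay above the median of all genes, and 5 were at or above the 90th percentile. The rule took genes for their height in library 4, so this contrast is partly built in. The genes had a median length of 2645 bases (quartiles 1250.5 and 3488), and all genes tested a median of 2812 bases (quartiles 1401 and 4886).

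Together the 84 genes took 1.38% of the counts of library 4, with an exact Poisson 95% interval of 1.38% to 1.39% that covers counting error only. In the other 14 libraries they took between 0.0414% and 0.123%. Their summed level was 12399 CPM in library 4. The sums in the DMSO libraries 1 to 5 were 1068, 678.8, 590.6, 890.6 and 832.5 CPM. At 15 pM libraries 1, 2, 3 and 5 had 1047, 590.3, 575.3 and 673.8 CPM. At 150 pM libraries 8 to 12 had 904.8, 743.4, 887.5, 458.2 and 590.9 CPM. Apart from library 4, the ranges of the 3 groups overlapped. The sums averaged 812.1 ± 186.4 CPM in DMSO (SD, n = 5), 721.6 ± 221.3 CPM at 15 pM without library 4 (SD, n = 4) and 717 ± 192.3 CPM at 150 pM (SD, n = 5). With library 4 included, the 15 pM group stood at 3057 ± 5226 CPM (SD, n = 5). With 15 pM library 1 left out the rule took 101 genes, 83 of them among the 84, and their sum in library 4 was 20212 CPM.

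By the rule each of the 84 genes was highest in library 4, so the values of the typical gene describe the choice and add no support to the sum. The median over the 84 genes was 39.4 CPM in library 4, between 1.27 and 3.67 CPM in the DMSO libraries, between 1.09 and 1.99 CPM in the other 15 pM libraries and between 0.832 and 1.7 CPM at 150 pM. In library 4, 0 of the 84 genes were under 1 CPM, whereas 19 were in DMSO library 1 and 47 in 150 pM library 9, the fewest and the most among the other 14.

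**Figure D2:**
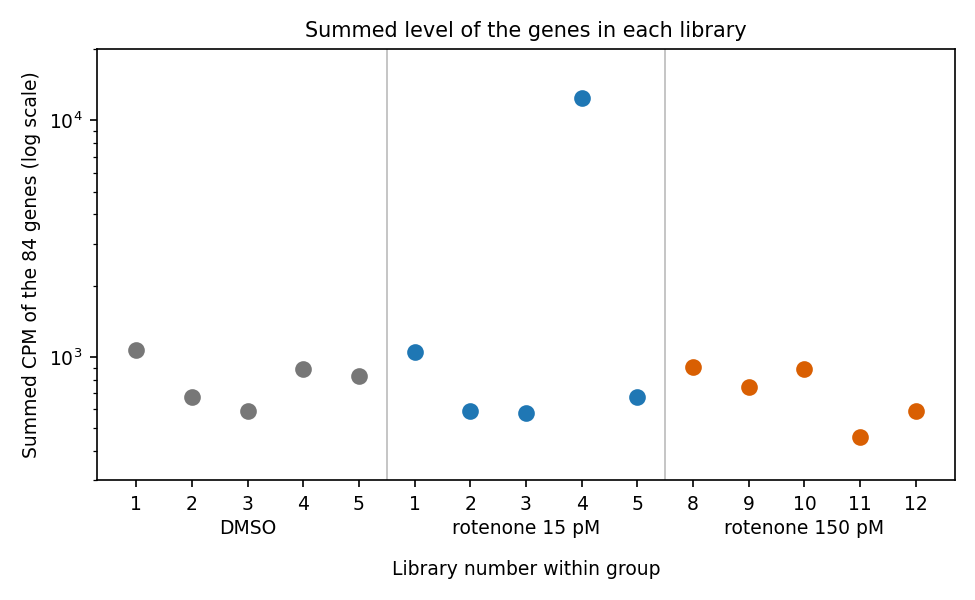
Summed CPM of the 84 genes (log scale) in each library, by group and library number; each point is 1 library. Library 4 of rotenone 15 pM lies at 12399 CPM, and the other 14 libraries lie between 458.2 and 1068 CPM.

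A few genes carried much of this sum. The gene with the most reads held 26.9% of it, and the top 4 held 50.9%. That gene was Nfu_g_1_015486, with a length of 4992 bases. It had 3337 CPM in library 4, from 90102 counts. The DMSO libraries 1 to 5 had 112.2, 44.6, 40.8, 49.6 and 60.8 CPM. At 15 pM the libraries 1, 2, 3 and 5 had 51.8, 80.3, 51.7 and 51.6 CPM, and at 150 pM the libraries 8 to 12 had 104.6, 38.8, 32.1, 29 and 50.3 CPM. Elsewhere DMSO library 1 and 150 pM library 8 were highest, and all 3 groups overlapped once library 4 was set aside. Its log2 fold change without library 4 was -0.04 at 15 pM (SE 0.372, edgeR adjusted p = 0.962) and -0.28 at 150 pM (SE 0.351, edgeR adjusted p = 0.635), each over DMSO. Per kilobase it was the second highest of the 84 genes in library 4, at 668.4 CPM per kilobase, beside 668.7 for the highest.

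Nfu_g_1_020043, of 1924 bases, had the widest gap, 4.96 log2 units, among those of the 84 genes that averaged 5 CPM or more over all 15 libraries. It met that limit only through library 4, since it averaged 0.98 CPM over the other 14. It stood at 126.7 CPM in library 4, from 3422 counts. In the DMSO libraries 1 to 5 it had 4, 2.34, 0.705, 1.44 and 0.835 CPM. The 15 pM libraries 1, 2, 3 and 5 had 0.574, 0.405, 0.204 and 0.622 CPM, and the 150 pM libraries 8 to 12 had 0.64, 0.166, 1.31, 0.109 and 0.366 CPM. All 4 remaining libraries of 15 pM lay below all 5 of DMSO, whereas the 150 pM and DMSO libraries overlapped. That separation is narrow and rests on few counts: 15 pM library 5 had 17 counts and DMSO library 3 had 18. In the fit of 14 libraries neither difference from DMSO passed the threshold: the log2 fold change was -2.01 at 15 pM (SE 0.683, edgeR adjusted p = 0.0856) and -1.83 at 150 pM (SE 0.622, edgeR adjusted p = 0.0701). The 150 pM difference passed it when 150 pM library 10 was left out (-2.54, edgeR adjusted p = 0.0251). When libraries 8 and 10 of 150 pM were both left out, both differences passed it, with -3.07 at 150 pM (edgeR adjusted p = 0.0181) and -1.98 at 15 pM (edgeR adjusted p = 0.0429). With DESeq2 both passed on 14 libraries (DESeq2 adjusted p = 0.0266 at 150 pM and 0.0278 at 15 pM). Over the alternatives without library 4 (edgeR, limma or DESeq2) the adjusted p lay between 0.0181 and 0.189 at 150 pM. At 15 pM it lay between 0.0278 and 0.215. With library 4 in the fit, where the spread it adds is shared by all groups, the 150 pM difference had an edgeR adjusted p of 0.523. With library 4 included the log2 fold change at 15 pM was 3.76. Nothing is read from either value with library 4, because library 4 chose the gene.

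**Figure D3:**
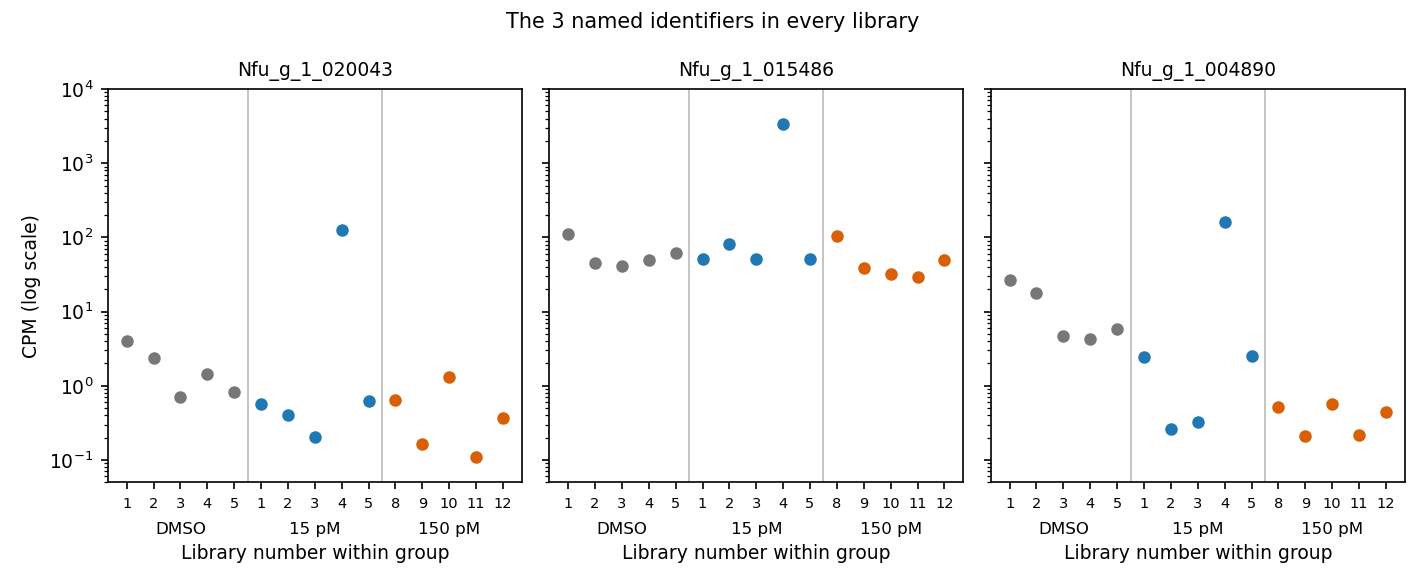
CPM (log scale) of the 3 printed identifiers in every library, by group; each point is 1 library. Library 4 of rotenone 15 pM is the highest point in each panel, at 126.7, 3337 and 161.4 CPM from left to right.

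Outside library 4 the levels of the 84 genes were weakly correlated with each other. Across the other 14 libraries the mean correlation between pairs of the 84 genes was 0.212, and over all pairs of genes tested it was 0.004. It was 0.147 over the 13 libraries without DMSO library 1, and 0.16 over 11 libraries without this library and 150 pM libraries 8 and 10. Genes in a library share its depth and scaling, and the rule used the highest of these libraries. These values are therefore a description of the libraries and carry no test.

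The second-highest library was unevenly spread over the set. DMSO library 1 came next after library 4 in 31 of the 84 genes (36.9%), and it was the highest of the 14 in 1792 of all 15834 genes. In those 31 genes DMSO library 1 had a median of 3.22 times the median of the 13 remaining libraries, and up to 46.3 times. It lay over 2-fold above all other DMSO libraries in 18 of the 84 genes (21.4%), and in 2.34% of all genes tested. DMSO library 1 was the deepest library, with 35672589 counts, and depth was not tested as a part of this pattern. At 150 pM, library 8 came next in 17 genes and library 10 in 8, and both lay above the other 3 libraries of their group in 33 of the 84 genes (39.3%), as in 15.1% of all genes tested. In 1 of the 84 genes both were at least 4-fold above the other 3, a step found in 149 genes in all. The 15 pM library 1 came next in 16 genes (19%), and it was the highest of the 14 in 10.9% of all genes tested.

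**Figure D4:**
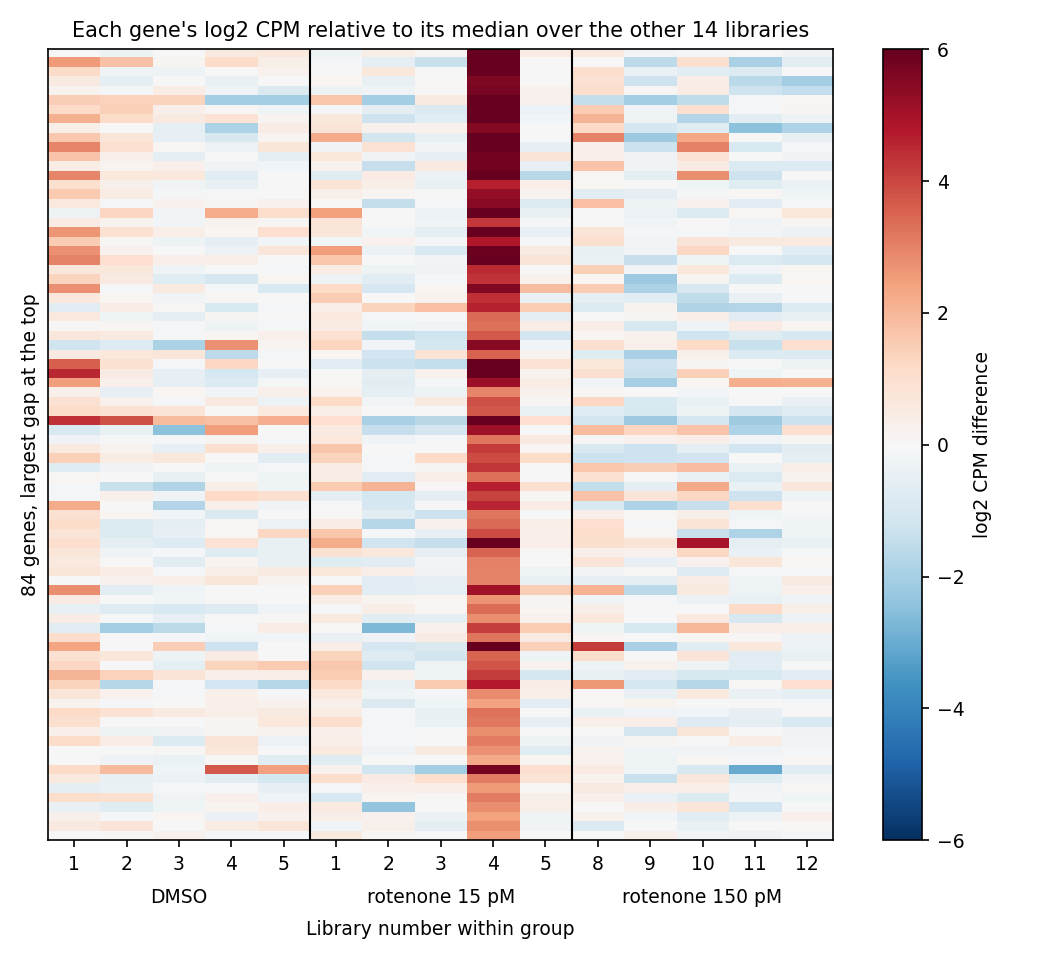
Log2 CPM of each of the 84 genes (rows, widest gap at the top) in each library (columns), as the difference from the gene's median over the other 14 libraries; colours stop at 6 log2 units in either direction. Library 4 of rotenone 15 pM is high in every row, and DMSO library 1 is the highest of the other 14 in 31 rows.

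Whether the 84 genes differed between groups is read only from fits without library 4, because its values chose them. The highest of the other 14 libraries also entered the rule, so these fits are not free of the choice. The remaining 14 libraries entered 1 fit with 1 mean per group (edgeR quasi-likelihood F-test, two-sided), p-values were adjusted over all 16018 genes of that fit, and genes with an adjusted p under 0.05 are called here. All 84 genes were in it. In 4 of the 84 genes fewer than 5 of the other libraries reached the minimum level, 0.376 CPM, so the 15-library filter kept them through library 4. Since that filter sets which genes could be chosen, shares of the 84 genes are given as a description.

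At 15 pM without library 4, against DMSO, 4 of the 84 genes were called, 2 higher and 2 lower. Across all genes tested 8.57% were called, 1.8% higher and 6.77% lower. The share of the 84 genes was 4.76%, below that of all genes in this fit, and the difference in shares was not tested. With DESeq2 11 of the 84 genes and 2178 of all 16018 genes were called. The set was also lower in level: 42.9% of it had a median under 1 CPM in the other 14 libraries, against 16% of all genes. Level was not tested as a part of the difference. With library totals in place of TMM scaling 3 of the 84 genes were called, all lower, and among all 1308 calls the share that was higher was 6.42%, against 21% of 1373 calls with TMM. That scaling put the median log2 fold change of all genes at -0.11 and that of the 84 genes at -0.3, whereas with TMM the median of all genes was 0.03. With TMM the 84 genes had a median of -0.14, with values between -3.04 and 1.8, and 31 of them (36.9%) were above 0, against 52.8% of all genes. This median turned to 0.1, over the 80 genes still tested, when DMSO library 1 was left out. It was 0 when 15 pM library 2 was left out, -0.05 for 15 pM library 3 and -0.36 for 15 pM library 1. The groups did not overlap in 3 higher and 3 lower genes of the 84, beside 4.67% and 8.43% of all genes tested. The 4 calls moved with single libraries. Leaving out a DMSO library gave 1 call without number 1, 0 without number 2 and 1 without number 5. Leaving out a 15 pM library gave 7 calls without number 1, 0 without number 2, 0 without number 3 and 1 without number 5. Leaving out number 12 of 150 pM gave 2. At an unadjusted p under 0.05 there were 16 of the 84 genes in the fit of 14 libraries, beside 24.7% of all genes, and in the fits with 0 calls there were 15 with DMSO library 2 left out, 12 with 15 pM library 2 left out and 14 with 15 pM library 3 left out. These fits tested 15877 to 16361 genes in all. Over all genes the calls numbered 770 when DMSO library 1 was left out, 763 for number 2 and 970 for number 5. For the 15 pM libraries they were 1355 for number 1, 542 for number 2, 985 for number 3 and 914 for number 5. For 150 pM library 12 they were 1298.

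At 150 pM against DMSO, 11 of the 84 genes were called, 3 higher and 8 lower. This share, 13.1%, was close to the 12.1% called over all genes tested, with 5.57% of all genes higher and 6.55% lower. On the log2 scale the 84 genes had a median fold change of -0.26, beside 0.01 over all genes, and 27 of them (32.1%) were above 0, beside 51.4% of all genes. This median was 0 over the 80 genes still tested when DMSO library 1 was left out, where all genes had 0.03, and -0.55 when 150 pM libraries 8 and 10 were left out. Single genes ranged from -4.87 to 2.65. The groups did not overlap in 1 higher and 6 lower genes, beside 5.04% and 6.3% of all genes tested. Among the 8 lower genes, DMSO library 1 was the highest DMSO library in 5, as it was in 54 of all 84 genes (64.3%) and in 27.5% of all genes tested. Without DMSO library 2 there were 6 calls among the 84 genes and 895 over all genes, and without 150 pM libraries 8 and 10 together there were 6 among the 83 still tested and 1362 over all genes. The DMSO libraries are the same in both comparisons, so the results are given side by side and their likeness is not read as a result.

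**Figure D5:**
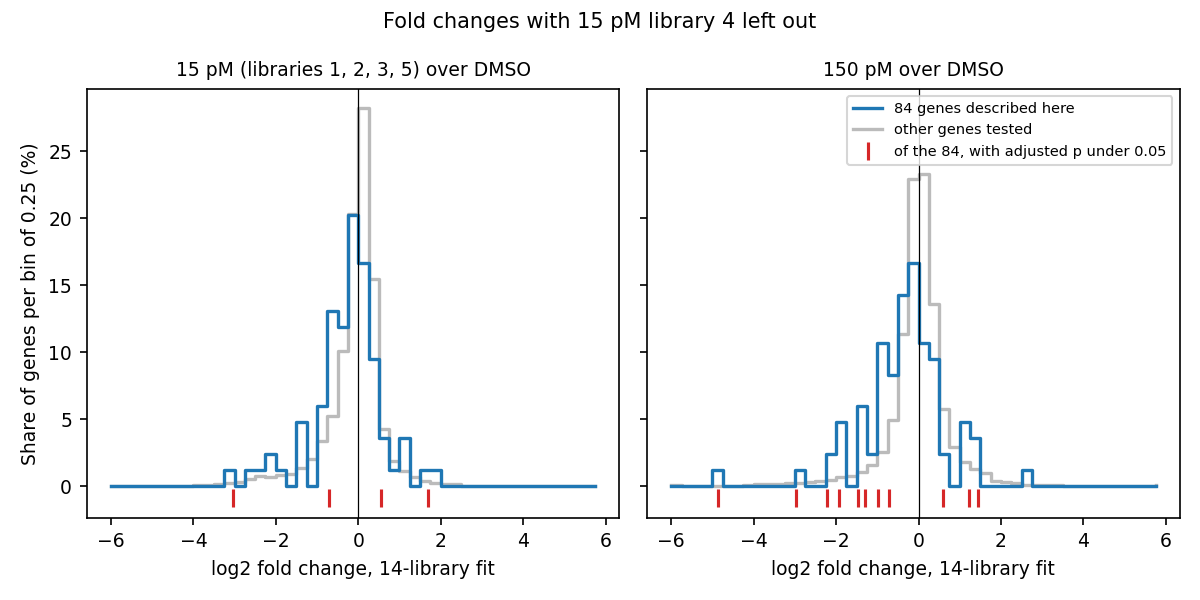
Distribution of log2 fold changes in the fit without 15 pM library 4, for the 84 genes (blue) and the other genes tested (grey), as the share of genes per bin of 0.25; left, 15 pM libraries 1, 2, 3 and 5 over DMSO, and right, 150 pM over DMSO. Red ticks mark the 4 and 11 genes of the set with an adjusted p under 0.05, and the 84 genes have medians of -0.14 (left) and -0.26 (right), which become 0.1 and 0 when DMSO library 1 is left out.

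The largest fall in both comparisons was in the same gene, Nfu_g_1_004890, of 2913 bases, which at 161.4 CPM was nonetheless highest in library 4. In the DMSO libraries 1 to 5 it had 26.4, 17.7, 4.7, 4.22 and 5.77 CPM. The 15 pM libraries 1, 2, 3 and 5 had 2.45, 0.258, 0.326 and 2.49 CPM, and the 150 pM libraries 8 to 12 had 0.52, 0.208, 0.571, 0.218 and 0.448 CPM. Apart from library 4, every rotenone library lay below every DMSO library. The gene averaged 1.38 ± 1.26 CPM at 15 pM (SD, n = 4) and 11.8 ± 9.91 CPM in DMSO (SD, n = 5), which is -3.04 as a log2 fold change (SE 0.741, edgeR adjusted p = 0.0234). At 150 pM it averaged 0.393 ± 0.17 CPM (SD, n = 5), which is -4.87 against DMSO as a log2 fold change (SE 0.767, edgeR adjusted p = 0.00198). Leaving out 15 pM library 2 or 3, or DMSO library 1 or 2, ended the call at 15 pM. With library 4 in the group the log2 fold change at 15 pM was 1.5, and nothing is read from it because library 4 chose the gene. At 150 pM the gene was called in 22 of 24 alternatives. It was not tested with at least 1 CPM in 10 libraries. The call also ended with library 4 in the fit (edgeR adjusted p = 0.0859). Nothing is read from that, because library 4 chose the gene and adds its spread.

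Of the other called genes, 1 was lower and 1 was higher in both comparisons, which share their DMSO libraries. The share of all genes called in both is not given here, so nothing is read from this overlap. The lower one averaged 4.96 ± 1.28 CPM at 15 pM without library 4 (SD, n = 4) and 8.2 ± 1.81 CPM in DMSO (SD, n = 5), with 4.15 ± 0.559 CPM at 150 pM (SD, n = 5). The higher one averaged 15.7 ± 2.26 CPM at 15 pM without library 4 (SD, n = 4) and 11 ± 1.66 CPM in DMSO (SD, n = 5), with 16.5 ± 2.94 CPM at 150 pM (SD, n = 5). At 15 pM the edgeR adjusted p was 0.04 for the lower gene and 0.0405 for the higher one, and each was called in 14 of 25 alternatives. At 150 pM it was 0.00493 and 0.0191, with calls in 23 and 21 of 24 alternatives. A further gene was called at 15 pM, where it was higher (edgeR adjusted p = 0.0496), and it was called in 11 of 25 alternatives. Those 11 include the fit with library 4 (edgeR adjusted p = 0.0387), from which nothing is read because library 4 chose the gene. At 150 pM 8 further genes were called. The 150 pM changes ran from -4.87 to -0.73 among the 8 lower genes and from 0.59 to 1.45 among the 3 higher ones, on the log2 scale.

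With library 4 back in the fit, all 84 genes had a positive log2 fold change at 15 pM against DMSO, with a median of 1.95, and 1 of them was called, as higher. Over all 15834 genes 4.21% were called, 0.524% higher and 3.69% lower. At an unadjusted p under 0.05 there were 43 of the 84 genes, beside 18.3% of all genes. For 150 pM against 15 pM, 18 of the 84 genes were called, all lower, beside 14.1% of all genes, 9.14% higher and 5% lower. Library 4 chose these genes, so nothing is read from either comparison. The spread that library 4 added is shared by all groups in the fit. At 150 pM against DMSO, library 4 takes no part in the means, but the spread it adds enters the test. In the 15-library fit 0 of the 84 genes were called, beside 5.66% of all genes, 2.13% higher and 3.52% lower. At an unadjusted p under 0.05 there were 4, beside 22.1% of all genes. Library 4 chose these genes and so added that spread to them, and nothing is read from these counts either.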

How the data were processed

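Read counts per gene identifier, whole numbers that the authors deposited without normalization, were available for 15 liver libraries. A TruSeq RNA v2 kit, without strand marking, was used on total RNA, per the labels' protocols. Tools named in the submitters' processing notes are featureCounts 1.4.6-p4, STAR 2.4.1d and CASAVA 1.8.2. Genome build and annotation: not given in the sources used here. Overlapping genes and near-identical copies may share reads and are uncertain.

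The RPKM values the authors deposited were compared with the counts at 104835 values above 2 RPKM and 200 counts. A single gene length fitted within 0.2% for 7.91% of them when the library's own total was the divisor, and for 100% when the totals were recycled down the rows. RPKM served only for gene lengths and as an alternative.

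Log2 CPM was computed after filterByExpr (minimum count 10) with TMM factors and a prior count of 2 in edgeR 4.0.16 (R 4.3.3). The members, lists and rules were chosen with earlier results of these data known. Groups follow the labels, and library numbers follow the sample titles. Tests used edgeR's quasi-likelihood fit on 14 libraries with Benjamini-Hochberg adjustment and a threshold of 0.05. The floor that 0 counts leave, 3 counts, equals 0.0841 to 0.135 CPM by library and covers counting error only. This floor is relative to unscaled library totals, whereas the other CPM values use scaled totals. Alternatives used limma 3.58.1 and DESeq2 1.42.0. The rule for printed identifiers took the widest gap at a mean of at least 5 CPM, the most reads in library 4 and the largest called fall in each comparison. Gene lists and cell type markers needed symbols and could not be applied.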

Additional observations from a re-analysis of the deposited data

Results flagged for a closer look

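Values were marked here where 1 library of a group of 5 lay far from the others by Dixon's criterion. Chance meets it in about 1 group in 20 for normally spread values that were not selected. That rate does not hold for values the rule selected or for counts with many ties. In the 15 pM group library 4 was marked for the summed level of the 84 genes (12399 CPM), for the number of genes meeting the rule in 1 library (84), and for all 3 printed identifiers, Nfu_g_1_020043 at 126.7 CPM, Nfu_g_1_015486 at 3337 CPM and Nfu_g_1_004890 at 161.4 CPM. These values chose the genes. The other marks fall on other libraries. Library 4 was still among the libraries compared when genes meeting the rule were counted, and its level chose Nfu_g_1_015486. At 150 pM, library 8 was marked for 31 genes meeting the rule and for Nfu_g_1_015486 at 104.6 CPM. In DMSO, library 1 was marked for 7 genes meeting the rule, for Nfu_g_1_015486 at 112.2 CPM and for its total of 35672589 counts.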

How the results depend on the processing

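The number of genes meeting the rule was between 85 and 134 when each other library was left out in turn. It was 137 with no filter on low counts, 45 with at least 1 CPM in 10 libraries, 444 with a gap over 1 and 24 with a gap over 3. Their summed level in library 4 moved with the genes included: 12264 to 20212 CPM leaving out each other library, 14128 with RLE factors, 11956 with upper-quartile factors, 20065 with library totals, 12163 with a prior count of 5, 14463 with no filter, 12659 with at least 1 CPM in 10 libraries, 46624 and 5510 with gaps over 1 and over 3, and 35945 with no limit on the mean. For 15 pM without library 4 against DMSO, calls among the 84 genes were 0 to 7 leaving out each library. They were 1 with no filter, 11 with DESeq2, and 2 of the 41 still tested with at least 1 CPM in 10 libraries. Calls over all genes were 542 to 1514 leaving out each library, 1168 with no filter, 1023 with at least 1 CPM in 10 libraries and 2178 with DESeq2. With library 4 back in the fit there was 1 call among the 84 genes, from which nothing is read, and 667 over all genes. For 150 pM against DMSO, calls among the 84 genes were 6 to 13 leaving out each library and 17 with DESeq2. They were 6 without 150 pM libraries 8 and 10, and 7 of the 41 still tested with at least 1 CPM in 10 libraries. Calls over all genes were 895 to 2225 leaving out each library, 1442 with at least 1 CPM in 10 libraries and 2968 with DESeq2. In the fit of 15 libraries there were 896 calls over all genes. There were 0 among the 84 genes, from which nothing is read because library 4 chose them and adds its spread. The fall of Nfu_g_1_004890 at 15 pM turned to a log2 fold change of 1.5 with library 4 included, and nothing is read from this because library 4 chose the gene. The cause of these moves was not tested, beyond the change of genes and libraries that each alternative makes itself.

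DMSO and 15 pM libraries share title numbers. The deviations of same-numbered libraries correlated by 0.161, 0.077, -0.082 and -0.019 for numbers 1, 2, 3 and 5. The best-correlated partner had the same number for number 1 and a different number for 2, 3 and 5. Whether same-numbered libraries were paired is not given in the sources used here, and these values do not decide it. A fit with the number as a replicate block held only the DMSO and 15 pM libraries numbered 1, 2, 3 and 5. In it edgeR called 0 of the 75 genes of the set still tested, with 16 at an unadjusted p under 0.05. Over all 15390 genes of this fit it called 5.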

Other observations

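Of the 84 genes, 6 carry identifier numbers between 15486 and 15593, in a stretch of 150 numbers that holds 106 of the genes tested. That is 5.66% of the stretch, beside 0.531% of all genes tested. Their gaps run from 3.66 to 4.89 log2 units, and 17 of the 84 genes have a gap that wide. In 5 of the 6, 150 pM library 8 was the second-highest library. Their mean pairwise correlation over the other 14 libraries was 0.56. The other genes of the stretch had a median gap of -0.55 log2 units, and 5 of them had a gap over 1. Whether consecutive numbers lie side by side in the genome is not given in the sources used here, and the stretch was picked after the values were seen.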
